A study of Mus musculus with 9 samples.

Results

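This account covers 40 genes of the cell cycle in PancOVA cells, a tumour line from mouse pancreas that had shared a matrigel drop with pancreatic stellate cells for 48 h. The members were chosen by name as genes that carry a cell from G1 through DNA replication to mitosis, and were found by symbol among the 41457 genes of the deposited table. They comprise 14 replication genes, 7 genes that control the step from G1 to S phase and 19 mitosis genes. All 40 were present and passed the filter on low values, so none was lost.

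The iCAF group held tumour cells cultured with stellate cells that had first been given Tc17 conditioned medium for 48 h to obtain inflammatory fibroblasts (Tc17 cells are CD8 T cells that make IL-17). In the myCAF group the stellate cells had received recombinant TGF-β1 (2 ng/ml) over the same 48 h to obtain myofibroblast-like cells, and in the qPSC group, the background control, they had been kept quiescent. Each group had 3 libraries, 9 in all. The stellate cells of all groups came from a line labelled mPSC45, were embedded in matrigel in medium with little serum before priming, and were mixed in fresh matrigel with tumour cells stained with an eFluor proliferation dye. Dye-positive cells were sorted as tumour cells after collagenase digestion. The dye is diluted when cells divide, and the sort kept cells that still held it. Nothing in the labels says that replicates were separate cultures, so p-values cover only library-to-library spread, possibly technical.

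As background, cells enter S phase when cyclin D and cyclin E kinases release E2F transcription factors, which switch on genes for replication. Later the MuvB complex, with B-Myb and FoxM1, controls genes for mitosis. E2F sites mark promoters of the first class, and a cell cycle homology region (CHR) near CCAAT boxes marks those of the second. These programmes follow proliferation, and pancreatic tumour cells run them at a high level.

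The promoters of the members differed by role. Sequences were matched by symbol in RefSeq (GRCm38.p6). Of the 40 members, 32 had a window from 250 bases before to 50 bases after a listed start. Where a gene had several windows, the first listed was used. That start can lie inside the gene. For E2f1, Cdk6, Cdc6 and Mcm7 the 250 bases before it fell within the annotated gene. An absent match there need not describe the gene's main promoter. An E2F match (any of TTCGCGC or else TTGGCGC or else TTCCCGC or else TTGCCGC on either strand) was present in 8 of 12 replication promoters (66.7%), 1 of 5 G1/S control promoters and 3 of 15 mitosis promoters (20.0%), against 9.69% of all 27025 promoters. A CHR match (TTTGAA or TTCGAA on either strand) was present in 12 of 15 mitosis promoters (80.0%) and 3 of 12 replication promoters (25.0%), against 19.4% of all promoters. At least 1 CCAAT on either strand was present in 14 of 15 mitosis and 9 of 12 replication promoters, against 37.9% of all promoters. Matches on opposite strands that overlap were counted apart. Of 26 E2F matches in members, 11 overlapped another match, as did 2 of 49 CCAAT matches and 0 of 23 CHR matches. A match is a run of letters and not a measured binding site.

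**Figure D1:**
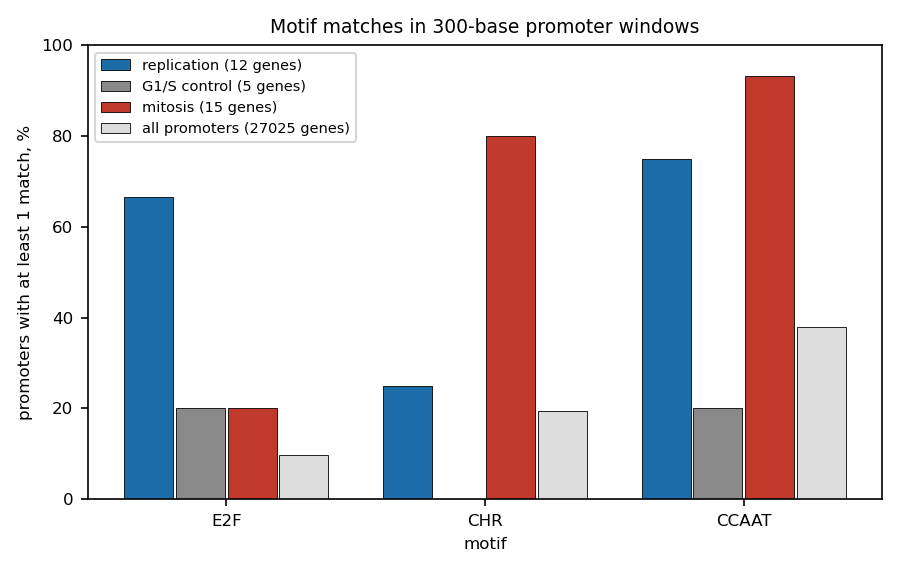
Share of promoters (y axis, per cent) with at least 1 match to an E2F, CHR or CCAAT motif (x axis) in 300-base windows, for members with a sequence by role and for all promoters. E2F matches are most frequent among replication promoters (66.7%) and CHR matches among mitosis promoters (80.0%).

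The following 5 promoters show both designs, with the 250 bases before the start printed 5′ to 3′ on the gene's strand and motif matches in capitals. Mcm6 encodes a subunit of the replicative helicase and Rrm1 the large subunit of ribonucleotide reductase, and both carry E2F matches. Top2a encodes topoisomerase IIα, Cdk1 the mitotic kinase and Ccnb2 cyclin B2. These 3 carry CHR and CCAAT matches, and Cdk1 carries E2F matches too. Mcm6 and Rrm1 also carry CCAAT matches. Of the 2 CHR matches of Ccnb2, the printed bases hold only the one 167 bases before the start. The other lies past the start, nearer to the CCAAT matches, and is not printed. The Mcm6 window lies at chr1:128359706-128359955 on the minus strand, Rrm1 at chr7:102441445-102441694 on the plus strand, Top2a at chr11:99024190-99024439 on the minus strand, Cdk1 at chr10:69352913-69353162 on the minus strand and Ccnb2 at chr9:70421555-70421804 on the minus strand.
Mcm6: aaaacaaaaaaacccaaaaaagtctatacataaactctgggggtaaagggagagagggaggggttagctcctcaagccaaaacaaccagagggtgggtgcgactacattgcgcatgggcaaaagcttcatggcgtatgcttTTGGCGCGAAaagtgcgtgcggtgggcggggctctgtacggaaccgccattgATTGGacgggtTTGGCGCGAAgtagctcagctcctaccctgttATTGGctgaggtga
Rrm1: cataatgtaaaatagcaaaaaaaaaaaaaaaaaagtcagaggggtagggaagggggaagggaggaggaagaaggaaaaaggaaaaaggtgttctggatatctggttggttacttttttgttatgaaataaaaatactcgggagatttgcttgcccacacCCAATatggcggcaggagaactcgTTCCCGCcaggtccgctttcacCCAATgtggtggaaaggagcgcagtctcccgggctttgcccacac
Top2a: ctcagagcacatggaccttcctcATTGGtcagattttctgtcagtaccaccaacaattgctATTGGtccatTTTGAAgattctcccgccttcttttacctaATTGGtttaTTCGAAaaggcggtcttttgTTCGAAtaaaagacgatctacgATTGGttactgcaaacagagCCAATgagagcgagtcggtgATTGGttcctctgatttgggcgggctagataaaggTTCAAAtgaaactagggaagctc
Cdk1: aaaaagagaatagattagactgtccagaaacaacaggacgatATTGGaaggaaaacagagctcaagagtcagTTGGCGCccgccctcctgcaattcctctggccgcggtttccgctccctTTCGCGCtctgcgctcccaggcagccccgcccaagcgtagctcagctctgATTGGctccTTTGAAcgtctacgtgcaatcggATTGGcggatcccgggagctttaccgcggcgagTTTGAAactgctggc
Ccnb2: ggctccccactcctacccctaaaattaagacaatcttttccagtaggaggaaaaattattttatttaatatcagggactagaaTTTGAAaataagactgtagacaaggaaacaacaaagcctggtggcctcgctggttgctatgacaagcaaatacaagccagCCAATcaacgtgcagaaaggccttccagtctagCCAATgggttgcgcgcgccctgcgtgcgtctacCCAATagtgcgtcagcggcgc

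The members were well expressed in every library, and no member passed the test in any comparison when all libraries were used. Levels are in TPM, transcripts per 1000000 after correction for gene length. Mean levels over the 9 libraries ran from 17.7 TPM for Cdk2, a kinase of the G1/S step, to 509 TPM for Pcna, the sliding clamp of DNA polymerases. The lowest value of any member in any library was 10.9 TPM, and the lowest number of reads implied by a member's TPM in a library was 1232, so counting error was small. Fold changes are log2 differences of TPM + 1 from limma fitted to the 11704 genes that reached 1 TPM in 3 or more libraries. A gene was called at a Benjamini-Hochberg adjusted p under 0.05. In iCAF against qPSC, 0 of 40 members were called, beside 0.598% of all tested genes (70 lower, 0 higher). In myCAF against qPSC, 0 of 40 were called, beside 0% of all genes. In iCAF against myCAF, 0 of 40 were called, beside 0.0598% of all genes. At an unadjusted p under 0.05 the members counted 1, 1 and 3 in the same order, beside 15.8%, 6.43% and 17.9% of all genes, and 0 members were called by limma-voom either, in each comparison. Without iCAF replicate 3, described next, the unadjusted counts were 11, 9 and 13, beside 17.3%, 17.9% and 20.0% of all genes. In bulk RNA, fewer cells in a phase and less RNA per cell cannot be told apart.

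One library stood apart from the other 8, and it sets the spread of the iCAF group. In iCAF replicate 3, ribosomal protein genes took 20.8% of all TPM, against 14.0% to 14.9% elsewhere, and the median gene had a log2(TPM + 1) of 3.96, where the other libraries had 4.35 to 4.47. Of the 40 members, 33 had their lowest value of all 9 libraries there (82.5%), as did 68.0% of all tested genes. Birc5 alone among the members had its highest value there. The libraries implied 38870602 to 45317258 reads each, and iCAF replicate 3 was not the shallowest. Results are therefore given with and without it.

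The sorted cells had keratin transcripts and some fibroblast transcripts. Of 6 epithelial genes, Krt8, Krt18 and Krt19 passed the filter. The simple-epithelium keratin gene Krt8 ranged between 744 and 830 TPM. Krt19, a duct keratin, lay at 11.2, 21.9 and 36.1 TPM in iCAF libraries, 36.9, 44.1 and 44.8 TPM in myCAF libraries and 18.8, 10.4 and 18.1 TPM in qPSC libraries, with all myCAF libraries above all qPSC libraries (log2 fold change 1.39 ± 0.36, SE; limma, adjusted p = 0.268). Krt7 did not exceed 0.128 TPM, and the epithelial adhesion genes Epcam and Cdh1 did not exceed 0.0275 TPM. Of 16 fibroblast genes, 13 passed the filter, and their summed level was 294, 399 and 197 TPM in iCAF, 872, 411 and 679 TPM in myCAF and 418, 482 and 534 TPM in qPSC libraries. The fibroblast genes Col1a2, Lum and Fap did not exceed 0.279 TPM. Of 12 leukocyte genes only Cd14 passed the filter. It lay at 98.4, 102 and 121 TPM in iCAF libraries, below all other libraries. The myCAF libraries held 136, 158 and 123 TPM, and the qPSC libraries 168, 163 and 142 TPM. The other leukocyte genes did not exceed 1.51 TPM.

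**Figure D2:**
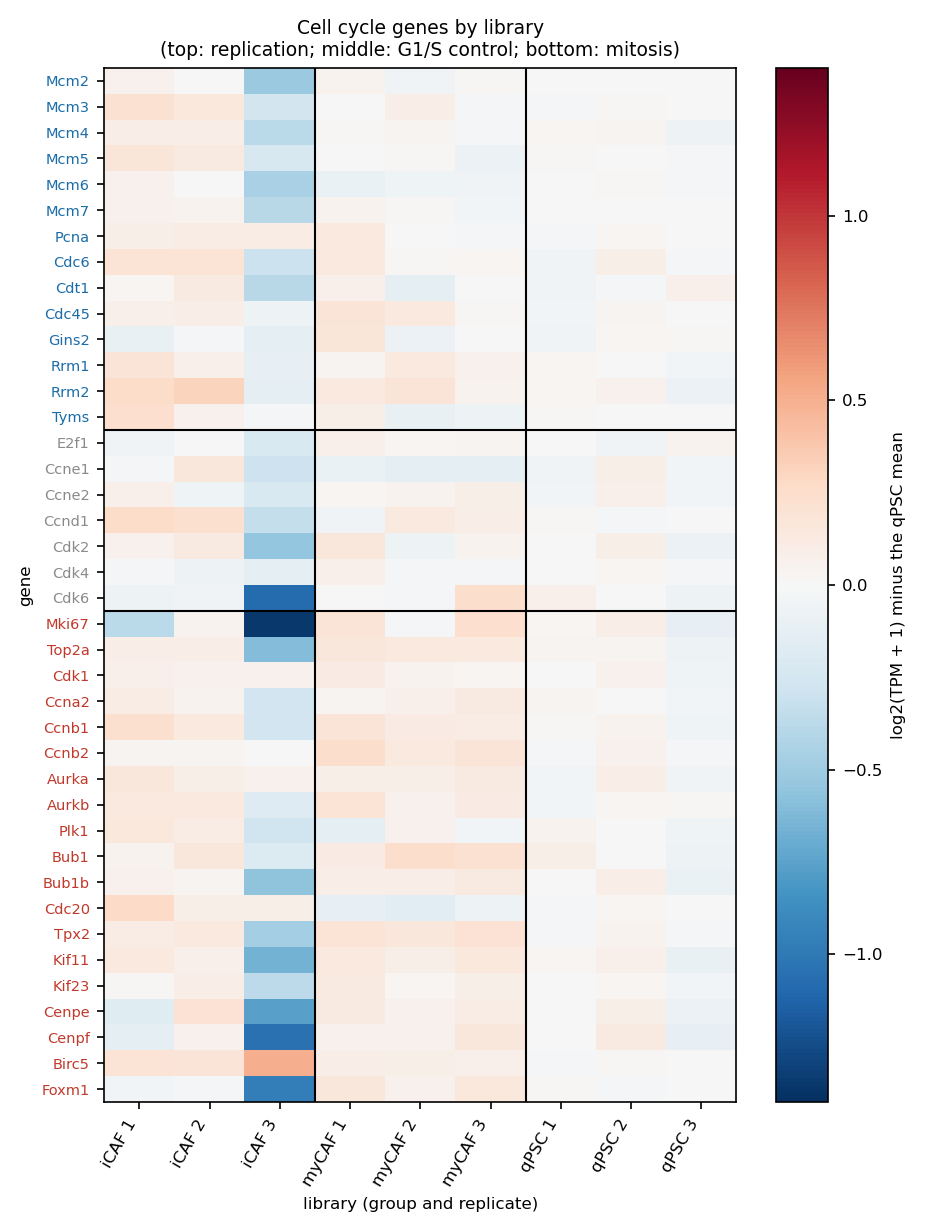
Log2(TPM + 1) minus the mean of the 3 qPSC libraries (colour) for the 40 members (rows, by role) in each of the 9 libraries (columns). The iCAF replicate 3 column holds the darkest blue, 33 of 40 members being lowest there, while Birc5 is highest there.

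Replication genes differed little between the groups. Mcm2 and Mcm5 encode subunits of the MCM helicase that is loaded on origins. Mcm2 lay at 109.7, 105 and 72.7 TPM in iCAF libraries, 109, 101 and 106 TPM in myCAF libraries and 105, 105 and 105 TPM in qPSC libraries. Mcm5 lay at 264, 256 and 202 TPM in iCAF libraries, 236, 238 and 222 TPM in myCAF libraries and 239, 237 and 231 TPM in qPSC libraries. For both, iCAF replicate 3 was the lowest library, and for Mcm5 the other iCAF libraries were the highest of the 9. The log2 fold change of Mcm5 in iCAF against qPSC was 0.02 ± 0.10 (SE; limma, adjusted p = 0.9) and 0.14 ± 0.05 without iCAF replicate 3 (limma, adjusted p = 0.164). The 6 MCM genes had log2 fold changes from -0.15 to 0.03 in iCAF against qPSC and from -0.07 to 0.02 in myCAF against qPSC. Pcna lay at 522, 530.1 and 528 TPM in iCAF libraries, 541, 494 and 486 TPM in myCAF libraries and 485, 500.2 and 492 TPM in qPSC libraries. Its iCAF libraries were all above its qPSC libraries and, unlike most members, it was not lowered in iCAF replicate 3.

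The licensing factors Cdc6 and Cdt1 load MCM on origins. Cdc6 lay at 35.8, 35.8 and 25.1 TPM in iCAF libraries, 34.3, 31.4 and 31.7 TPM in myCAF libraries and 30.05, 33.0 and 30.6 TPM in qPSC libraries. Cdt1 lay at 126, 135 and 94.3 TPM in iCAF libraries, 130.1, 113 and 123 TPM in myCAF libraries and 119, 122 and 130.1 TPM in qPSC libraries. In both genes iCAF replicate 3 was below all other libraries, which overlapped for Cdt1. Cdc6 had a log2 fold change of 0.03 ± 0.13 in iCAF against qPSC (SE; limma, adjusted p = 0.901) and 0.19 ± 0.06 without iCAF replicate 3 (limma, adjusted p = 0.163).

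Rrm2, the small subunit of ribonucleotide reductase, and Tyms, thymidylate synthase, supply DNA precursors. Rrm2 lay at 354, 366 and 268 TPM in iCAF libraries, 326, 335 and 305 TPM in myCAF libraries and 301, 307 and 279 TPM in qPSC libraries. The 2 other iCAF libraries were the highest, and iCAF replicate 3 was the lowest of all 9. Rrm2 had the largest log2 fold change of the replication genes in iCAF against qPSC, 0.14 ± 0.11 (SE; limma, adjusted p = 0.455). Leaving out iCAF replicate 3 made it 0.28 ± 0.06 with an adjusted p of 0.0518 (limma), just outside the threshold. With each library also centred on its median, it was 0.34 and passed (limma, adjusted p = 0.0487; range across settings 0.0487 to 0.709). Tyms lay at 32.2, 28.6 and 26.8 TPM in iCAF libraries, 29.0, 25.3 and 26.0 TPM in myCAF libraries and 27.6, 27.2 and 27.1 TPM in qPSC libraries, and the groups overlapped.

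Over the 14 replication genes, the median log2 fold change in iCAF against qPSC was 0.03, where that of all tested genes was -0.15. It was 0.09 without iCAF replicate 3, where that of all genes was -0.03. With libraries centred on their medians, all genes had a median of 0.05 and replication genes one of 0.22. Without iCAF replicate 3, 13 of 14 fold changes were positive and 10 of 14 genes had both iCAF libraries above all 3 qPSC libraries, beside 14.5% of all tested genes, while 0 were called, beside 1.51% of all genes (0.111% called higher). With all 3 iCAF libraries, 1 of 14 was above without overlap, beside 4.67% of all genes. In myCAF against qPSC the median was 0.02, with 1 gene (Rrm1) above and 1 gene (Mcm6) below without overlap, beside 11.3% and 12.5% of all genes. In iCAF against myCAF the median was -0.05, and 0 genes had no overlap, beside 4.55% higher and 18.3% lower among all genes. Leaving out iCAF replicate 3 gave 0.09, with 12 of 14 positive, beside 41.7% of all genes, and 6 of 14 above without overlap, beside 13.9%.

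Genes of the G1/S step were also close between the groups. E2f1, an activating E2F factor, lay at 75.4, 77.4 and 67.2 TPM in iCAF libraries, 81.4, 79.1 and 80.1 TPM in myCAF libraries and 77.8, 75.3 and 80.3 TPM in qPSC libraries. The cyclin E genes drive entry into S phase. Ccne1 lay at 43.4, 49.5 and 36.2 TPM in iCAF libraries, 41.6, 40.2 and 40.5 TPM in myCAF libraries and 42.8, 47.2 and 43.3 TPM in qPSC libraries. Its myCAF libraries lay below its qPSC libraries without overlap, at a log2 fold change of -0.12 ± 0.11 (SE; limma, adjusted p = 1). Ccne2 lay at 33.3, 30.4 and 27.3 TPM in iCAF libraries, 32.3, 32.7 and 33.7 TPM in myCAF libraries and 30.9, 33.5 and 30.8 TPM in qPSC libraries, and its myCAF and qPSC libraries overlapped.

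Ccnd1, cyclin D1, links growth signals to the cycle and had the highest level of the cyclin genes measured here. It lay at 436, 427 and 289.7 TPM in iCAF libraries, 354, 402 and 391 TPM in myCAF libraries and 371, 361 and 364 TPM in qPSC libraries. The first 2 iCAF libraries were the highest of the 9 and the third was the lowest. The log2 fold change in iCAF against qPSC was 0.05 ± 0.14 (SE; limma, adjusted p = 0.841) and 0.24 ± 0.06 without iCAF replicate 3 (limma, adjusted p = 0.0822).

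Cdk4 and Cdk6 are the kinase partners of cyclin D. Cdk4 lay at 381, 369 and 355 TPM in iCAF libraries, 407, 383 and 381 TPM in myCAF libraries and 388, 393 and 378 TPM in qPSC libraries. Cdk6 lay at 22.8, 23.2 and 10.9 TPM in iCAF libraries, 24.0, 23.6 and 28.7 TPM in myCAF libraries and 25.4, 24.1 and 22.8 TPM in qPSC libraries. Cdk4 differed little in any library, whereas Cdk6 in iCAF replicate 3 was far below its level elsewhere. The Cdk6 log2 fold change in iCAF against qPSC was -0.40 ± 0.24 (SE; limma, adjusted p = 0.369) and -0.06 ± 0.09 without that library (limma, adjusted p = 0.747). Over the 7 G1/S genes the median log2 fold change was -0.07 in iCAF against qPSC, 0.05 in myCAF against qPSC and -0.12 in iCAF against myCAF. With that library left out, the iCAF medians were 0.00 against qPSC and -0.05 against myCAF. E2f1 and Cdk6, 2 of the 7, lay lower in iCAF than in myCAF libraries without overlap, beside 18.3% of all genes (20.0% without iCAF replicate 3).

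Most mitosis genes lay slightly higher in myCAF than in qPSC libraries, without a call when all libraries were used. Mki67, the Ki-67 proliferation antigen that coats mitotic chromosomes, lay at 87.5, 118 and 44.0 TPM in iCAF libraries, 129.6, 112 and 135 TPM in myCAF libraries and 116, 122 and 105 TPM in qPSC libraries. It varied within the iCAF group more than any other member, and the group overlapped both others. Its log2 fold change in iCAF against qPSC, -0.56 ± 0.29 (SE; limma, adjusted p = 0.33), was the largest decrease among the members in that comparison, and it was -0.16 ± 0.13 without iCAF replicate 3 (limma, adjusted p = 0.536). Foxm1, a transcription factor for mitosis genes, lay at 78.7, 79.3 and 40.9 TPM in iCAF libraries, 90.6, 84.8 and 89.8 TPM in myCAF libraries and 82.1, 80.2 and 81.2 TPM in qPSC libraries. All 3 iCAF libraries were below all qPSC and myCAF libraries, 2 of them narrowly. Its log2 fold change in iCAF against myCAF was -0.47 ± 0.21 (SE; limma, adjusted p = 0.279) and -0.16 ± 0.05 with that library left out (limma, adjusted p = 0.117).

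Cdk1 and cyclin B1 form the kinase that starts mitosis. Cdk1 lay at 104, 104 and 104 TPM in iCAF libraries, 108, 103 and 102 TPM in myCAF libraries and 99.9, 104 and 95.1 TPM in qPSC libraries, so that even iCAF replicate 3 was within the range of the others. Ccnb1 lay at 146, 137 and 103 TPM in iCAF libraries, 141, 135 and 133 TPM in myCAF libraries and 126, 128 and 119 TPM in qPSC libraries. Its myCAF libraries were above its qPSC libraries without overlap. Top2a lay at 242, 242 and 148 TPM in iCAF libraries, 252, 249 and 249 TPM in myCAF libraries and 232, 233 and 215 TPM in qPSC libraries. Apart from iCAF replicate 3, its iCAF and myCAF libraries were above its qPSC libraries, and its log2 fold change in myCAF against qPSC was 0.14 ± 0.16 (SE; limma, adjusted p = 1, and 0.103 without iCAF replicate 3).

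Plk1 and Aurka are mitotic kinases of the spindle and centrosome. Plk1 lay at 219, 212 and 163 TPM in iCAF libraries, 180.1, 206 and 192 TPM in myCAF libraries and 205, 199 and 189.8 TPM in qPSC libraries. Aurka lay at 114, 108 and 107 TPM in iCAF libraries, 108, 108 and 111 TPM in myCAF libraries and 99.0, 109 and 98.9 TPM in qPSC libraries. For Plk1 the myCAF libraries overlapped the qPSC libraries, and for Aurka all groups overlapped. Cdc20, which activates the anaphase-promoting complex, lay at 355, 311 and 312 TPM in iCAF libraries, 272, 265 and 280.4 TPM in myCAF libraries and 290.1, 302 and 293 TPM in qPSC libraries. Its iCAF libraries were the highest and its myCAF libraries the lowest, without overlap. The log2 fold change of Cdc20 in iCAF against myCAF was 0.26 ± 0.07 (SE; limma, adjusted p = 0.159, and 0.0687 without iCAF replicate 3).

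Tpx2, which targets Aurora A to the spindle, was the 1 member called without iCAF replicate 3. It lay at 127, 129.8 and 85.1 TPM in iCAF libraries, 136, 132 and 136 TPM in myCAF libraries and 116, 123 and 117 TPM in qPSC libraries. The myCAF libraries were above the qPSC libraries, at a log2 fold change of 0.18 ± 0.14 with all libraries (SE; limma, adjusted p = 1) and 0.18 ± 0.04 without iCAF replicate 3 (limma, adjusted p = 0.0474; range across settings 0.047 to 1). That is 1 of 40 members (1 of 19 mitosis genes), beside 2.83% of all tested genes in that fit (1.04% called higher). The fold change itself did not depend on iCAF replicate 3, which enters this comparison through the shared spread.

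Birc5 and Ccnb2 are named here after their values were seen. Birc5, the survivin subunit of the chromosomal passenger complex, lay at 71.6, 71.2 and 89.8 TPM in iCAF libraries, 66.9, 66.3 and 65.9 TPM in myCAF libraries and 61.9, 63.4 and 63.1 TPM in qPSC libraries. All iCAF libraries were above all others, and its log2 fold change in iCAF against qPSC was 0.29 ± 0.10 (SE; limma, adjusted p = 0.259) and 0.18 ± 0.04 without iCAF replicate 3 (limma, adjusted p = 0.0709). Ccnb2 lay at 119, 119 and 117 TPM in iCAF libraries, 137, 127 and 132 TPM in myCAF libraries and 113, 121 and 114 TPM in qPSC libraries, and its myCAF libraries were above those of both other groups. Its log2 fold change in myCAF against qPSC was 0.19 ± 0.07 (SE; limma, adjusted p = 0.538, and 0.0576 without iCAF replicate 3).

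Over the 19 mitosis genes, 17 had positive log2 fold changes in myCAF against qPSC, where 52.0% of all tested genes were positive. The median was 0.10 and that of all genes was 0.01. By library, the median log2 difference from the qPSC mean was 0.13, 0.07 and 0.12 in myCAF libraries. In qPSC libraries it was 0.005, 0.04 and -0.06. The myCAF libraries lay above the qPSC libraries without overlap for 11 of 19 genes, beside 11.3% of all genes, and below them for Cdc20, beside 12.5%. The median of 0.10 corresponds to a small difference, and no gene was called with all libraries. In iCAF against qPSC the median was -0.04 with all libraries and 0.09 without iCAF replicate 3, where 16 of 19 were positive, beside 40.5% of all genes. In iCAF against myCAF it was -0.17 with all libraries, close to the -0.15 of all genes, and -0.03 without iCAF replicate 3. There 4 of 19 were positive with all libraries, beside 24.4% of all genes. Of the 40 members without iCAF replicate 3, 11 lay higher and 7 lower in iCAF than in myCAF libraries without overlap, beside 13.9% and 20.0% of all genes, and 0 were called, beside 0.599%. Centring each library on its median gave 0.16 for iCAF against qPSC and 0.03 for iCAF against myCAF, so the sign of these 2 medians rests on the scaling. The comparisons share the qPSC, iCAF or myCAF libraries and are not independent of each other. Genes of a list were measured in the same libraries, so counts of genes are not counts of independent observations. The summed fibroblast level given above also had its highest mean in the myCAF group. Its part in the mitosis values was not tested.

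**Figure D3:**
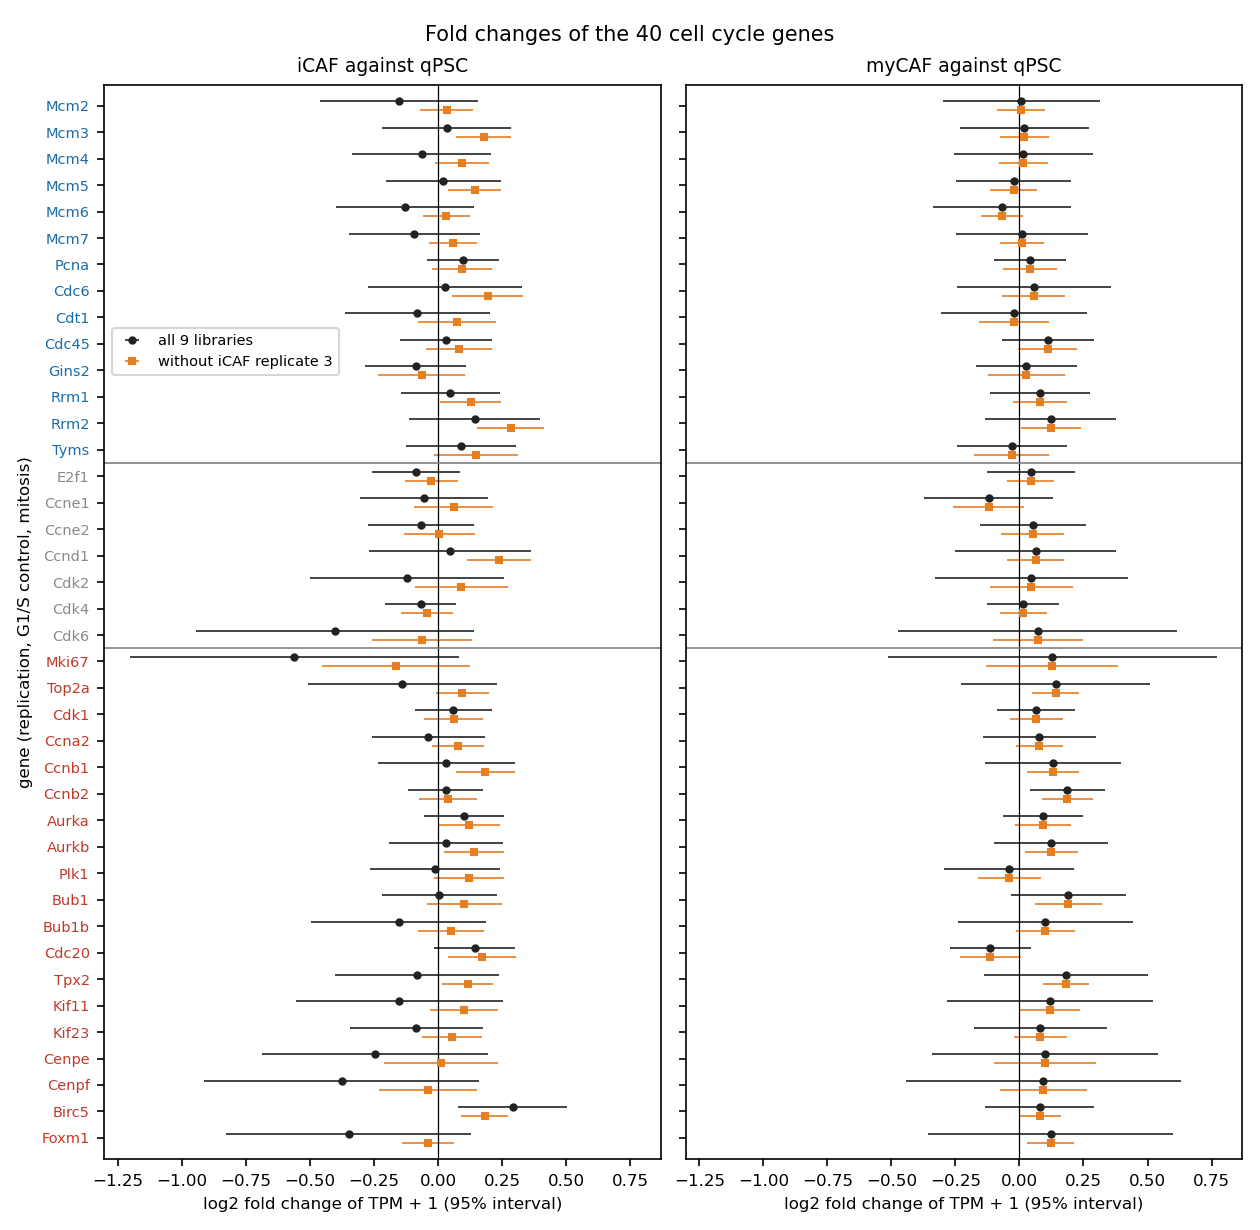
Log2 fold change of TPM + 1 with its 95% limma interval (x axis) for each of the 40 members (rows) in iCAF against qPSC (left) and myCAF against qPSC (right). Black circles use all 9 libraries and orange squares leave out iCAF replicate 3, where all 40 intervals lie within 1.5-fold in both comparisons.

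The intervals cover library-to-library spread, possibly technical, and not the scaling of TPM. Centring on library medians moved the median of iCAF against qPSC from 0.03 to 0.22 for replication genes. For mitosis genes it moved from -0.04 to 0.16. With all libraries, the 95% interval of the log2 fold change lay within 1.5-fold in either direction for 35 of 40 members in iCAF against qPSC, 36 of 40 in myCAF against qPSC and 32 of 40 in iCAF against myCAF. The widest was that of Mki67, at -1.20 to 0.08 in iCAF against qPSC. In this fit a gene's interval is equally wide in each of the 3 comparisons. Without iCAF replicate 3, all 40 intervals lay within 1.5-fold in each of the 3 comparisons, and the median interval half-width in myCAF against qPSC was 0.11, where it was 0.25 with that library. The intervals are per gene and not adjusted for the number of genes.

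Outside iCAF replicate 3 the median member varied little within a group. The median coefficient of variation over the 40 members was 16.4% in iCAF (2.43% for the 2 libraries without replicate 3), 3.58% in myCAF and 3.43% in qPSC libraries. Over all tested genes it was 19.4%, 6.50% and 5.06% in the same order of groups, with 5.31% for iCAF without replicate 3. The members had a higher median level than all tested genes, and level was not matched. The largest value of a member in iCAF without replicate 3 was 21.2%.

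The values of members in iCAF replicate 3 varied with gene length. The 10 members with the longest exons, from 6219 bases in Cdk2 to 15433 in Cenpf, a kinetochore gene, had a median difference of -0.73 from the mean of the other 2 iCAF libraries on the log2(TPM + 1) scale. The 10 shortest, from 1531 bases in Ccnb2 to 3154 in E2f1, had a median difference of -0.25. Spearman's rho between this difference and exon length was -0.33 across the 14 replication genes and -0.76 across the 19 mitosis genes. Across all 40 members it was -0.66, and across 11646 tested genes with a length it was -0.62. These are descriptions across genes of 1 library. In the other groups rho across the members lay between -0.39 and 0.40. Across the 19 mitosis genes alone it was -0.64 in qPSC replicate 3. There 16 of 19 lay below the mean of the other 2 qPSC libraries, at a median difference of -0.09. In the remaining qPSC and myCAF libraries it lay between -0.22 and 0.35. Set against the trend over all genes at the same length, 13 members lay above it and 27 below, with a median of -0.08. The members farthest below it were Mki67, Foxm1 and Plk1, at -0.53, -0.46 and -0.30. Those farthest above it were Birc5, Rrm1 and Cdk1, at 0.61, 0.45 and 0.41. These 6 were chosen after their values were seen. The part of RNA quality in this pattern was not tested.

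**Figure D4:**
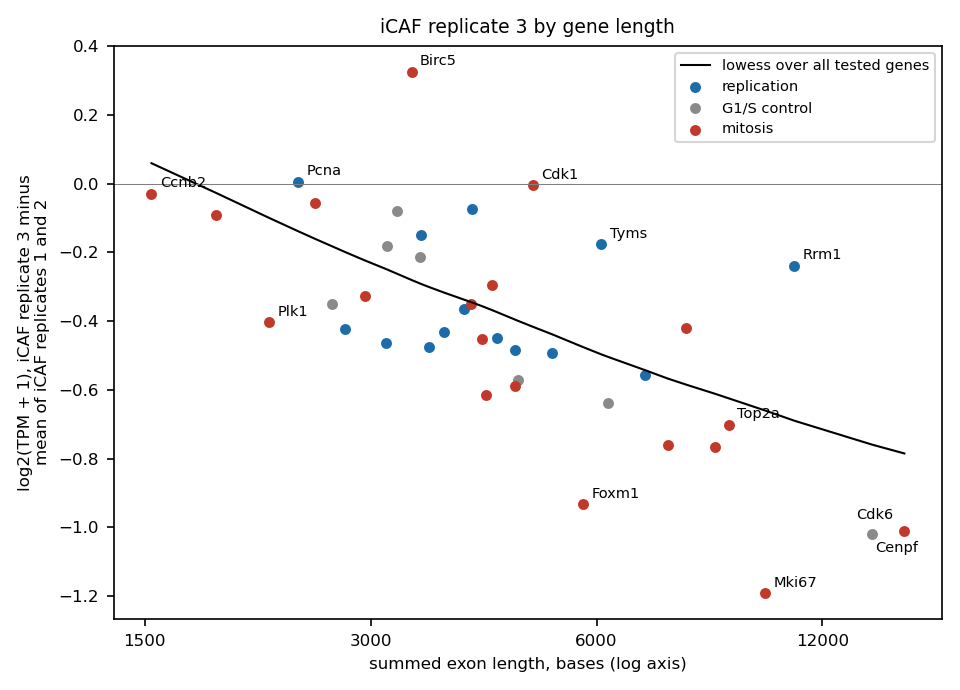
Difference in log2(TPM + 1) between iCAF replicate 3 and the mean of iCAF replicates 1 and 2 (y axis) against summed exon length in bases (x axis, log scale) for the 40 members, coloured by role, with the lowess trend over all tested genes as a line. The 10 longest members have a median of -0.73, from -1.19 in Mki67 to -0.24 in Rrm1, while Birc5 is higher by 0.33.

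Few other genes of the same pathways were called. Of 30 further replication genes, 0 were called in any comparison with or without iCAF replicate 3, and the median log2 fold change was -0.01 in iCAF against qPSC and 0.01 in myCAF against qPSC. Of 40 further mitosis genes, 0 were called with all libraries. In myCAF against qPSC 35 of 40 were positive, with a median of 0.10, and 19 of 40 lay above without overlap, beside 11.3% of all genes. With iCAF replicate 3 left out, 1 of 40 was called in each comparison with qPSC, beside 1.51% of all genes in iCAF against qPSC and 2.83% in myCAF against qPSC, so these counts are near the background. Tacc3, a spindle gene, lay at 133, 130.3 and 116 TPM in iCAF libraries, 129, 124 and 121 TPM in myCAF libraries and 111, 113 and 109.8 TPM in qPSC libraries, and its log2 fold change in iCAF against qPSC was 0.24 ± 0.04 in that fit (SE; limma, adjusted p = 0.0402, and 0.307 with all libraries). Cdc25c, the phosphatase that activates Cdk1, lay at 32.2, 29.9 and 29.6 TPM in iCAF libraries, 31.3, 31.4 and 32.1 TPM in myCAF libraries and 25.2, 27.9 and 24.3 TPM in qPSC libraries, with a log2 fold change of 0.28 ± 0.06 in myCAF against qPSC (SE; limma, adjusted p = 0.0442, and 0.382 with all libraries). Of 14 further G1 genes 0 were called. Among them Ccnd2 and Ccnd3, the other cyclin D genes, had log2 fold changes of -0.22 and -0.33 in iCAF against qPSC, and Myc, a growth regulator, -0.30 (limma, adjusted p = 0.404, 0.287 and 0.324). Leaving out iCAF replicate 3 gave -0.02, -0.21 and -0.18 for these genes (limma, adjusted p = 0.899, 0.162 and 0.47).

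Among inhibitors of the cycle, Btg2 was lower in iCAF than in qPSC cultures. Of 16 genes on the inhibitor list, 1 was called lower in iCAF against qPSC with all libraries, beside 0.598% of all genes. Without iCAF replicate 3 there were 2, beside 1.4%. The list also held genes of the p53 pathway that are not themselves inhibitors of the cycle, such as Mdm2. All 16 log2 fold changes were negative with all libraries, where 22.6% of all genes were positive. Without iCAF replicate 3, 13 were negative, where 40.5% of all genes were positive. The medians were -0.33 and -0.17, and the all-gene medians of these fits, given above, were also negative. The iCAF libraries lay below the qPSC libraries without overlap for 9 of 16, beside 23.2% of all genes. Btg2, an antiproliferative p53 target and early-response gene, lay at 15.0, 14.8 and 14.5 TPM in iCAF libraries, 23.1, 25.7 and 19.1 TPM in myCAF libraries and 26.3, 34.9 and 24.1 TPM in qPSC libraries. The 3 iCAF libraries were close to each other and below all others, and the log2 fold change against qPSC was -0.88 ± 0.15 (SE; limma, adjusted p = 0.041; range across settings 0.0125 to 0.201). The direction held in all settings, at -0.69 to -0.99, but the call did not. It was lost with centring, voom, no filter, 6 libraries or the replicate block, and on leaving out iCAF replicate 1, myCAF replicate 1 or 3, or any qPSC replicate.

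Cdkn1a, which encodes the p21 inhibitor of cyclin-dependent kinases, lay at 157, 188 and 164 TPM in iCAF libraries, 209.8, 218 and 209 TPM in myCAF libraries and 224, 216 and 241 TPM in qPSC libraries. All iCAF libraries were below all myCAF and qPSC libraries. Its log2 fold change in iCAF against qPSC was -0.42 ± 0.08 (SE; limma, adjusted p = 0.0699), and it passed without iCAF replicate 3 at -0.40 ± 0.08 (limma, adjusted p = 0.0468; range across settings 0.0268 to 0.34). It passed without iCAF replicate 2 as well, at -0.50 (limma, adjusted p = 0.0268), and in no other setting. In myCAF against qPSC it was -0.10 ± 0.08 (limma, adjusted p = 1). Cdkn1b, the p27 inhibitor, lay at 41.3, 40.6 and 31.1 TPM in iCAF libraries, 47.1, 49.3 and 47.5 TPM in myCAF libraries and 46.0, 45.1 and 41.5 TPM in qPSC libraries, with an adjusted p of 0.326 in iCAF against qPSC (limma).

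The locus products of Cdkn2a, the p16 and p19ARF gene, and its neighbour Cdkn2b, the p15 gene, varied most within the myCAF group. Cdkn2a lay at 56.7, 92.3 and 80.8 TPM in iCAF libraries, 219, 80.5 and 175 TPM in myCAF libraries and 93.5, 109.8 and 128 TPM in qPSC libraries. Cdkn2b lay at 1.82, 3.35 and 3.08 TPM in iCAF libraries, 9.33, 4.52 and 8.89 TPM in myCAF libraries and 5.39, 5.53 and 6.38 TPM in qPSC libraries. In both, myCAF replicates 1 and 3 were the highest of the 9 libraries, as they were for Col1a1 and Thy1. Col1a1, a fibroblast collagen gene, lay at 47.2, 72.9 and 28.8 TPM in iCAF libraries, 155, 68.2 and 158 TPM in myCAF libraries and 54.0, 57.9 and 69.9 TPM in qPSC libraries. Thy1, the CD90 gene that marks the stellate cells, lay at 2.32, 3.46 and 2.05 TPM in iCAF libraries, 9.04, 3.28 and 8.23 TPM in myCAF libraries and 2.81, 4.04 and 5.40 TPM in qPSC libraries. Not all fibroblast genes were detected at such levels: Col1a2, Lum and Fap did not exceed 0.279 TPM in any library. The source of the Cdkn2a and Cdkn2b transcripts, tumour cells or stellate cells, was not tested. The log2 fold change of Cdkn2a was -0.54 ± 0.33 in iCAF against qPSC and 0.41 ± 0.33 in myCAF against qPSC (SE; limma, adjusted p = 0.373 and 1).

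**Figure D5:**
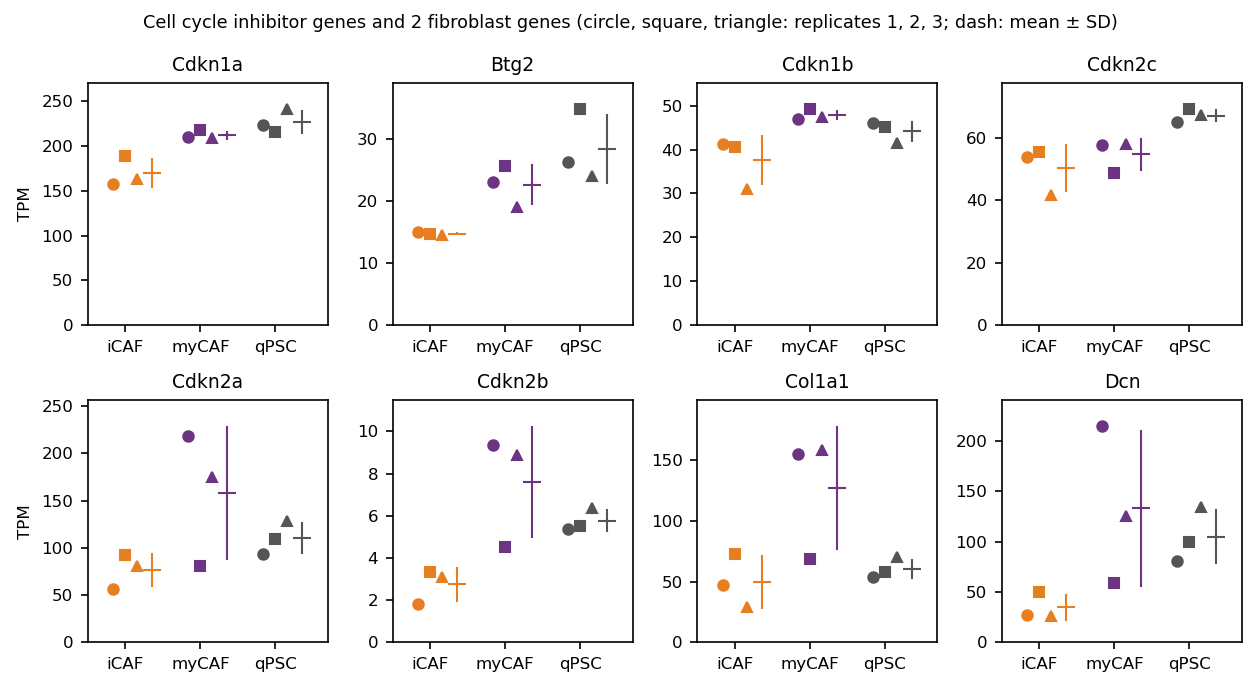
TPM (y axis, from 0) of 6 inhibitor genes and the fibroblast genes Col1a1 and Dcn in the iCAF, myCAF and qPSC libraries (x axis), with a point per library and the mean ± SD (n = 3) as a dash and bar. The 6 are part of the inhibitor list of 16, and iCAF and qPSC libraries overlapped for some genes not drawn. The iCAF libraries lie below the qPSC libraries for the 6 genes drawn, narrowly for Cdkn1b and Cdkn2a. Cdkn2a varies across the myCAF libraries with Col1a1.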

How the data were processed

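The study measured polyadenylated RNA of sorted tumour cells in 9 libraries, 3 in each of 3 groups. The authors deposited their values as TPM in a single table of 41457 gene symbols. Per the submitters' processing notes, the tools included Salmon, R and DESeq2, without saying which did what. The genome build is not given in the sources used here. Per the labels' protocols, libraries were stranded and sequenced as single reads of 50 bases. Because TPM values share a fixed total, a library of different composition shifts all its genes. Exon lengths came from GENCODE M21, which gave 98.9% of symbols a single gene model. Multiplying TPM by exon length gave near-whole read numbers (within 0.05 reads) for 97.8% or more of the genes under 200 reads in each library, and from these the implied depth.

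Genes that reached 1 TPM in 3 or more libraries (11704) were analysed on the log2(TPM + 1) scale by limma 3.58.1 (R 4.3.3), using all 9 libraries, group as the one factor and a trended prior. Benjamini-Hochberg adjustment ran over all tested genes, with a threshold of 0.05. The fit was also run on simulated data in which every library had the same spread per gene. That simulation held no outlying library like iCAF replicate 3, so it does not cover this feature of the data. Between any 2 libraries of a group, chi-square per degree of freedom was at least 8.06, so none was a copy. The members and lists were chosen with earlier results of these data known. Of the members, 21 preset genes and any called with or without iCAF replicate 3 were to be named with all values. For the other lists these were called genes and 6 preset ones. Tables and figures used Python 3.11.15. The alternatives are named in the closing section.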

Additional observations from a re-analysis of the deposited data

How the results depend on the processing

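The settings tried were a pseudocount of 0.1, a filter of 5 TPM or none, centring on library medians, removal of ribosomal protein genes, fits of 6 libraries, no mean-variance trend, a replicate block, limma-voom on implied reads and each library left out. Removal of the gene-length trend was added after seeing the data. In 19 of 21 settings 0 members were called. Leaving out iCAF replicate 3 called 1 mitosis gene (Tpx2) in myCAF against qPSC, and with centring as well it called 1 replication gene (Rrm2) in iCAF against qPSC and 1 mitosis gene. Of 120 fold changes (40 members in 3 comparisons), 73 changed sign in at least 1 setting, none of them called with all libraries. The cause of the moves below was not tested.

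Over all genes, the 70 calls of iCAF against qPSC became 24 with centring, 45 with voom, 5 with no filter, 37 with 6 libraries, 22 with the replicate block and 0 to 194 with 1 library left out. The 0 calls of myCAF against qPSC became 38 without the length trend, 5 with voom, 1 with no filter, 382 with 6 libraries and 0 to 331 with 1 library left out. Without iCAF replicate 3 they were 347 with centring and 66 with the replicate block. The 7 calls of iCAF against myCAF became 0 with centring, voom, 6 libraries or the replicate block, 1 with no filter, no trend or the lower pseudocount, 46 without the length trend, 0 to 281 with 1 library left out, and 52 without iCAF replicate 3 and with centring.

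Centring set the medians of iCAF against qPSC at 0.22 for replication, 0.13 for G1/S and 0.16 for mitosis genes, and those of iCAF against myCAF at 0.15, 0.082 and 0.035, as the median of all genes moved from -0.15 to 0.05 in both. The replication median of iCAF against myCAF was 0.10 without the length trend and 0.15 without iCAF replicate 3 and with centring, where the mitosis median was 0.033. The mitosis median of myCAF against qPSC ran from 0.068 to 0.14 with 1 library left out. The libraries did not pair consistently by replicate number. Deviations of same-numbered libraries correlated at -0.35 to 0.25, highest for iCAF replicate 3 with qPSC replicate 3, and 2 of 9 were over 0.1. For 0 of 9 libraries was the best match in both other groups the one with its own number. Deviations within a group of 3 libraries depend on each other, and iCAF replicate 3 stood apart, so this check cannot exclude pairing. The smallest implied read number of a member was 1232.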

Other observations

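The summed TPM of the 19 mitosis genes divided by that of the 14 replication genes was 0.818, 0.819 and 0.791 in iCAF libraries, 0.850, 0.848 and 0.903 in myCAF libraries and 0.840, 0.847 and 0.817 in qPSC libraries. All myCAF libraries lay above all others, by as little as 0.848 against 0.847 between myCAF and qPSC. In iCAF replicate 3 both sums were the lowest of the 9 libraries, at 1744 and 2205 TPM, while their ratio was 0.791. This ratio was formed after the values were seen and was not tested.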
